A study of Homo sapiens with 2 samples.

Results

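POLR3G, POLR3GL, POLR3E, POLR1F and GTF3A encode parts of the machinery with which RNA polymerases I and III make the RNAs of the ribosome and other small RNAs. They were chosen by name, with their differences in these same 2 arrays already known, so every value of that contrast below is a description and carries no test. All 5 were found, each with 1 probe set, among 14812 genes with a symbol, and all 5 lay among the 10592 genes counted as measured. Measured means that the log2 signal reached its array's median over the whole table in either array.

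The study set 2 cultures of BE(2)C against each other, a human neuroblastoma cell line that carries amplified MYCN. One culture received a single siRNA product against MYCN and the other a non-targeting control siRNA from a different supplier. Both were transfected with Lipofectamine 2000 and gave RNA after 36 hours, and 100 ng of each RNA was hybridised to an Affymetrix Human Gene 2.0 ST array, which reads each transcript with a set of short probes. Each group is 1 array, so no value has a replicate, no p-value can be given, and the difference between siRNA products cannot be told apart from the difference in target. The title of the control array contains the word reanalysis, which the sources used here do not explain. Whether both arrays went through RMA in the same run is not stated either, and a separate run for the control array would enter every difference below.

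RNA polymerase I transcribes the large ribosomal RNA precursor, and RNA polymerase III transcribes 5S ribosomal RNA, transfer RNAs and other short RNAs. POLR3G and POLR3GL are paralogs that fill the same place in RNA polymerase III, so that the enzyme exists in 2 forms; the POLR3G form is known from stem cells and transformed cells, the POLR3GL form from most tissues. Proteins of the MYC family are known to act on genes transcribed by all of the nuclear RNA polymerases.

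The promoters are shown as a description of the genes. Whether their sequence has a part in the differences was not tested. RefSeq windows of 300 bases on GRCh38.p14, from 250 bases before the annotated gene start to 50 after it, were held for 4 of the 5 genes, with POLR3G the missing entry. Capitals mark 3 motifs searched on both strands: the E-box CACGTG, which MYC proteins bind with MAX, the core of the B box of transfer RNA genes (GTTCGANTC), and the CCAAT box (CCAAT). Another motif, the TATA box TATAAA, was in none of the 4 windows. The POLR3E window lies at chr16:22297159-22297458 (plus strand), the POLR3GL window at chr1:145964440-145964739 (plus strand), the GTF3A window at chr13:27424369-27424668 (plus strand) and the POLR1F window at chr7:19708988-19709287 (minus strand).
POLR3E: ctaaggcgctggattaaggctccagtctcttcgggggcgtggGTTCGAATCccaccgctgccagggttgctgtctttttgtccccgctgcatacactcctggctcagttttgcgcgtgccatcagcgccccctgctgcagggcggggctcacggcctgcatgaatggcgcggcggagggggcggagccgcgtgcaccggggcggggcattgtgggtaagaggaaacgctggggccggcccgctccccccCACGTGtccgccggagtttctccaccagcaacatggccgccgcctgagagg
POLR3GL: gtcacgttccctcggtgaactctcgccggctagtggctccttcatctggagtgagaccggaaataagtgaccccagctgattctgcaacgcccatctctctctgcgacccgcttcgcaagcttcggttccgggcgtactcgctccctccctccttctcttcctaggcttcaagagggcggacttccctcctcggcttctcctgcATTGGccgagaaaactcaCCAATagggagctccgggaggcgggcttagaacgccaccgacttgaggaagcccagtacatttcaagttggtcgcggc
GTF3A: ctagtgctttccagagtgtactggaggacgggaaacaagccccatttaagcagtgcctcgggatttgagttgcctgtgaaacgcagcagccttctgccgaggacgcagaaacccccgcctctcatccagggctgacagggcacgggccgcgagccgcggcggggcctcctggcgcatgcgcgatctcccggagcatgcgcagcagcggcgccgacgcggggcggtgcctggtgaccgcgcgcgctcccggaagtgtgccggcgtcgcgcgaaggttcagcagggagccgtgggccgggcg
POLR1F: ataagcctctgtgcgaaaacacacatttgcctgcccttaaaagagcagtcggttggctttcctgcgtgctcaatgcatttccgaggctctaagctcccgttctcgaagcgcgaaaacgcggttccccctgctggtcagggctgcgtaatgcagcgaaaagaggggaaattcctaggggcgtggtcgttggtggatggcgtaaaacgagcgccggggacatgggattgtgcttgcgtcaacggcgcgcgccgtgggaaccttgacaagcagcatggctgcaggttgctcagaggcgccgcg

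POLR3E was the only one of these 4 windows with the E-box, and it held 1 copy, which begins 1 base before the annotated gene start and runs across it. Of the 35116 promoter windows of this length in the RefSeq table, 7.26% held an E-box. The same window holds 1 B box core, beginning 208 bases before the start, a match present in 0.253% of the windows. RefSeq places TRL-AAG2-4, a leucine transfer RNA gene, in this part of the window, so a template of RNA polymerase III stands directly beside the gene of one of its own subunits. POLR3GL had 2 CCAAT boxes, 46 and 28 bases before the start on opposite strands, against 34.6% of all windows with at least 1. This window also overlaps the annotated gene ANKRD34A, so its motifs need not belong to POLR3GL alone. The TATA box was in 11.5% of all windows. GTF3A and POLR1F held none of the 4 motifs. The B box was searched for after the POLR3E window had been read, so its match there is no independent observation. A match is a string of letters, and binding was not measured. Only exact strings in 1 window per gene were searched, so other forms or places of a motif were not seen.

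Of the RNA polymerase III subunits, POLR3G was far lower in the MYCN siRNA array and its paralog POLR3GL was modestly higher. POLR3E was also lower by more than 2-fold. GTF3A, which brings RNA polymerase III to the 5S genes, was lower by less than 2-fold, and the RNA polymerase I subunit POLR1F was nearly level. Of the 5 genes, 4 were lower and 1 was higher, and 2 were at least 2-fold lower. Among all measured genes, 48.0% were lower by any amount, 1.16% were at least 2-fold lower and 2.21% at least 2-fold higher. At 1.5-fold, 3 of the 5 were lower, against 5.79% of measured genes. Since the genes were picked from this contrast, these shares are printed as background and nothing is read from them.

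**Figure D1:**
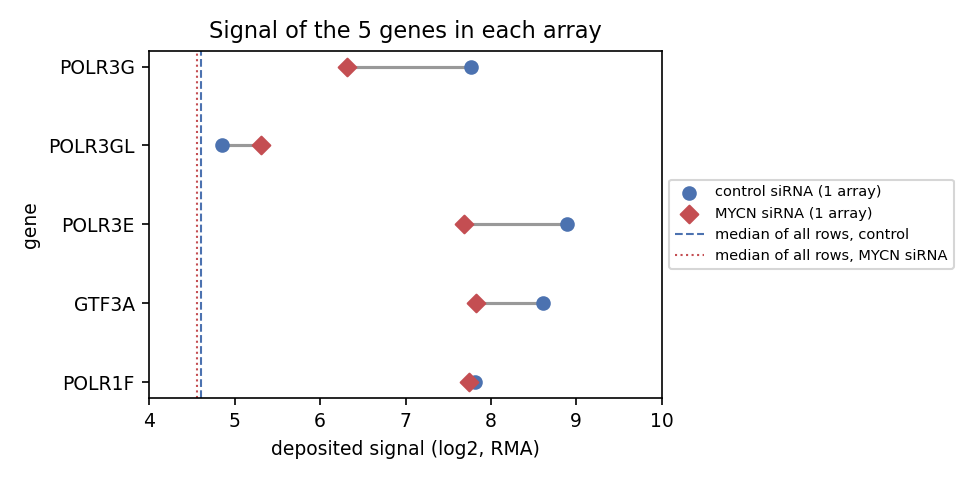
Deposited log2 signal (horizontal axis) of each gene (vertical axis) in the control siRNA array (circles) and the MYCN siRNA array (diamonds), 1 array each, with the median of all rows in each array as vertical lines. POLR3G runs from 7.77 down to 6.32 and POLR3GL from 4.85 up to 5.30, the latter close to the medians of 4.60 and 4.55.

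POLR3G (probe set 16987125, chromosome 5), the paralog of the stem and tumour form, had a log2 signal of 7.77 with control siRNA and 6.32 with MYCN siRNA. The MYCN siRNA array is the lower, by a log2 difference of −1.45, or 2.74-fold. Only 17 of the 10592 measured genes had a lower difference. The signal passed from brighter than 85.7% of all rows to brighter than 73.9%, so POLR3G stayed 1.77 log2 units above the array's median in the MYCN siRNA array.

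POLR3GL (probe set 16692088, chromosome 1), the paralog of the widely expressed form, was at 4.85 with control siRNA and 5.30 with MYCN siRNA. Here the MYCN siRNA array is the higher, by a log2 difference of 0.46, or 1.37-fold, and 1456 measured genes had a higher difference. Both values are dim: the control value is brighter than 54.3% of all rows and lies 0.24 above the array's median, and the other is brighter than 62.6% and lies 0.75 above it. A signal this near the middle of all rows is not shown to be above background, so the fold is uncertain. Among the 2495 measured genes whose mean level lies within 0.5 of that of POLR3GL, the differences between the 10th and the 90th percentile ran from −0.43 to 0.41, and POLR3GL lies just beyond the upper end.

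The paralogs differed by −1.91 on the log2 scale (the difference of POLR3G minus that of POLR3GL), which is a 3.75-fold lower ratio of POLR3G to POLR3GL signal in the MYCN siRNA array. This ratio carries the limit of its dim partner: since POLR3GL is not shown to be above background, the size of the gap is as uncertain as the POLR3GL fold. This compares changes, not amounts: the 2 genes are read by different probes, and their levels cannot be set against each other. The only spread in these data is between probe sets of 1 gene. In 159 pairs with a mean level under 6, the range of POLR3GL, it was an SD of 0.33 per probe set, and in 215 pairs at 6 or above, the range of POLR3G, 0.31. They lend the gap no support, since the genes were picked for it, and they leave out the spread between cultures, labellings and hybridisations, and neither paralog has a second probe set.

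POLR3E (probe set 16816833, chromosome 16), the subunit RPC5, which is known to work in initiation and termination, was at 8.89 with control siRNA and 7.68 with MYCN siRNA. It was 2.31-fold lower (log2 difference −1.21), and 58 measured genes had a lower difference. Unlike POLR3GL it was bright in both arrays, above 92.3% of rows with control siRNA and 84.7% with MYCN siRNA.

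GTF3A (probe set 16773507, chromosome 13), or TFIIIA, is the zinc finger protein that binds inside the 5S gene and also binds 5S RNA. Its signal was 8.61 with control siRNA and 7.82 with MYCN siRNA, which is 1.73-fold lower (log2 difference −0.79). It missed the 2-fold threshold, yet 265 measured genes had a lower difference.

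POLR1F (probe set 17055630, chromosome 7), the subunit RPA43 through which RNA polymerase I meets its initiation factor RRN3, was at 7.82 with control siRNA and 7.74 with MYCN siRNA. The log2 difference of −0.08 is smaller than the SD of 0.31 between probe sets. With 4246 measured genes lower and 6345 higher than it, POLR1F lies in the middle of the distribution. RRN3 itself was at 9.69 and 9.60, a difference of −0.09.

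**Figure D2:**
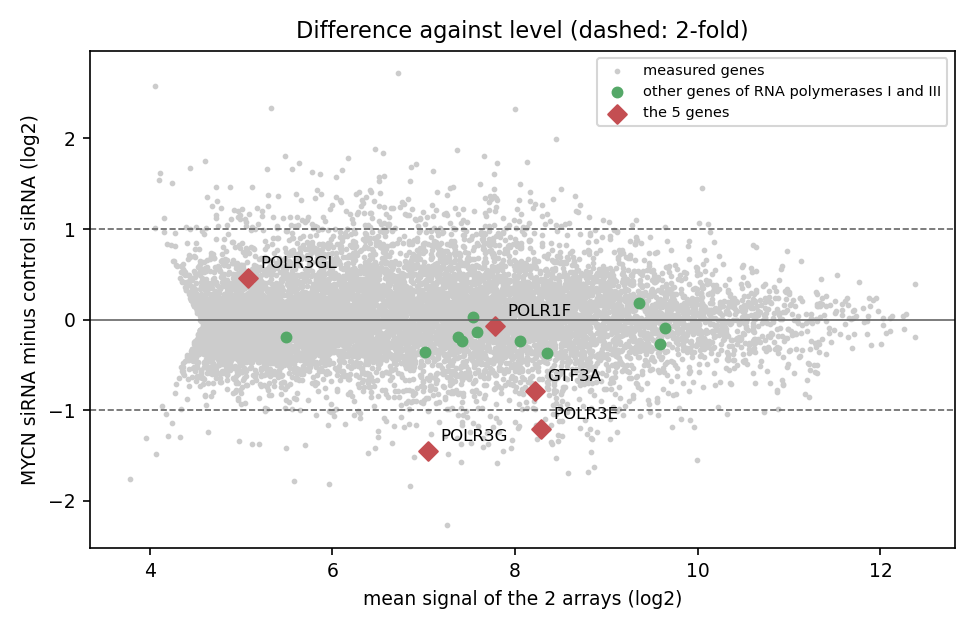
Log2 difference, MYCN siRNA minus control siRNA, against the mean log2 signal of the 2 arrays, for all 10592 measured genes (grey), the other 11 genes of RNA polymerases I and III (green circles) and the 5 genes (red diamonds), with dashed lines at 2-fold. POLR3G at −1.45 and POLR3E at −1.21 lie under the lower line, while the 11 other genes lie between −0.36 and 0.18.

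The other parts of RNA polymerase III show how far the 5 genes stand for the enzyme. A list of 11 subunits of RNA polymerase III was used, 6 of which were measured. Of these 6, 5 were lower, against 48.0% of all measured genes. The median difference of the 6 was −0.32, against 0.01 for all measured genes. That median includes the 3 genes chosen from this contrast. The other 3 were POLR3B, the second largest subunit, at 8.53 with control siRNA and 8.17 with MYCN siRNA (difference −0.36), POLR3C, at 9.72 and 9.45 (difference −0.27), and CRCP, at 7.65 and 7.52 (difference −0.13). All 3 were lower, by less than 1.3-fold in each case. POLR3C is the subunit that sits beside POLR3G or POLR3GL in a small subcomplex, and its difference was smaller in size than that of POLR3G. Against POLR3GL no order in size is drawn, since the POLR3GL fold is uncertain. The remaining 5 subunits were not analysed here.

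Of 20 factors that work with RNA polymerase III, 5 were measured, 3 of them lower and 2 higher, where 48.0% of all measured genes were lower. The median difference of the 5 was −0.24, which includes GTF3A. SSB, the La protein that holds the uridine ends of new RNA polymerase III transcripts, was at 7.19 and 6.84 (difference −0.36). ZNF143, an activator of small nuclear RNA genes, was at 7.53 and 7.30 (difference −0.24). TBP, the TATA-binding protein shared by all 3 polymerases, was at 9.27 and 9.45 (difference 0.18). MAF1, the general repressor of RNA polymerase III, was at 7.52 and 7.55; its difference of 0.03 turned to −0.03 after quantile normalization and was below 0 after loess, so it has no direction here. None of these 4 differences exceeds 1.5-fold.

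RNA polymerase I was measured through few genes. Of 6 subunits, POLR1F and POLR1H were measured, and POLR1H, the small subunit known for RNA cleavage, was at 7.47 and 7.28 (difference −0.19). Of 7 subunits that the polymerases share, POLR2F and POLR2H were measured, at differences of −0.19 and −0.24. Both also belong to RNA polymerase II, whose list of 10 below leaves the shared subunits out. POLR2F has 2 probe sets, which gave −0.19 each. RNA polymerase II, looked at for comparison, had 2 of 10 subunits measured: POLR2D went from 10.05 to 9.61 (difference −0.44) and POLR2G from 7.62 to 7.75 (difference 0.13). Both of these make up the stalk of RNA polymerase II. With 2 genes a list, no order between the polymerases is drawn.

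Without the 5 genes, the lists for RNA polymerases I and III, shared subunits included, held 11 measured genes. Of these, 9 were lower and 2 higher, where 48.0% of all measured genes were lower. The median difference of the 11 was −0.19, and none was past 2-fold. Among the 9, only POLR3B and SSB (−0.36 each) were lower by more than the SD of 0.31 between probe sets. The share of all measured genes lower by that much was not computed, so nothing is read from this count. MAF1, 1 of the 2 higher, has no direction here. The 11 ran from −0.36 to 0.18. POLR3G, POLR3E and GTF3A lie below that range and POLR3GL above it, which the choice of genes fixes.

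**Figure D3:**
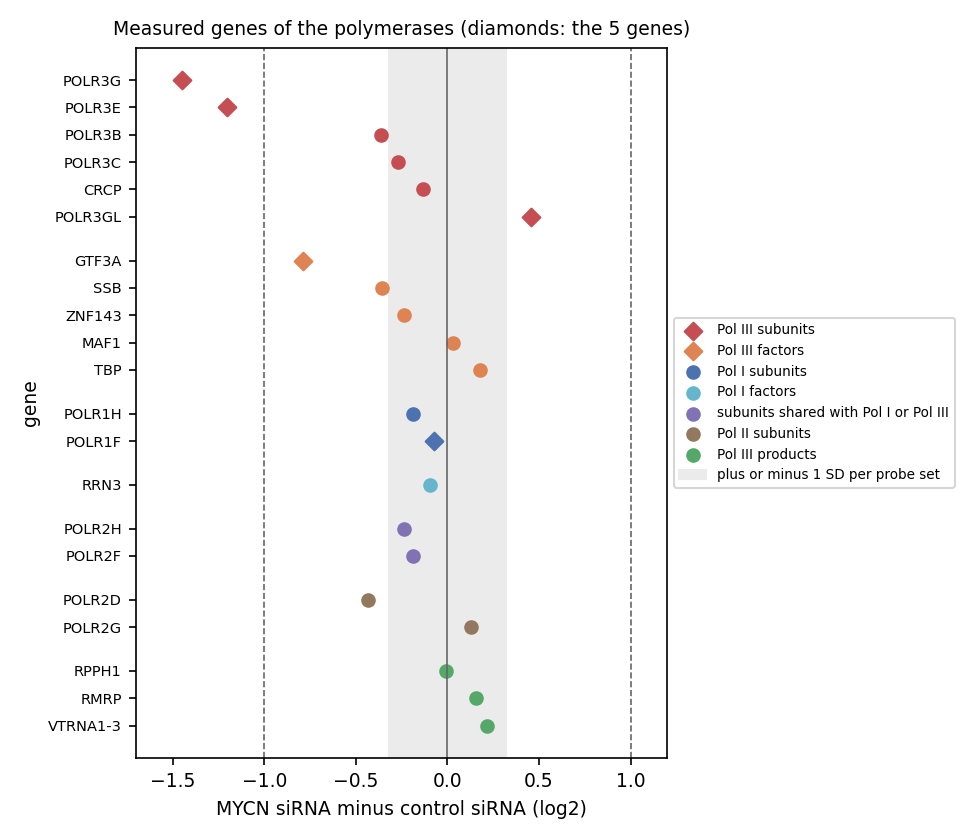
Log2 difference, MYCN siRNA minus control siRNA (horizontal axis), of each measured gene of the polymerase lists (vertical axis, coloured by list; diamonds are the 5 genes), 1 array per group, with 1 SD between probe sets of 1 gene shaded and 2-fold dashed. The 3 measured RNAs that RNA polymerase III makes are plotted as well. Most genes fall within or close to the shaded band of 0.32 to either side, POLR3G at −1.45, POLR3E at −1.21 and GTF3A at −0.79 lie below it, and POLR3GL at 0.46 lies above it.

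RNAs that RNA polymerase III makes were looked up beside its subunits. Of 19 such RNAs, 6 had values and 3 were measured. RMRP, the RNA of the RNase MRP enzyme, was at 11.26 and 11.42 (difference 0.15), VTRNA1-3, a vault RNA, at 6.94 and 7.16 (difference 0.22), and RPPH1, the RNA of RNase P, at 5.86 and 5.85 (difference −0.01). RMRP and VTRNA1-3 were higher, by less than the SD between probe sets. RPPH1 changes sign with the scaling, so it has no direction here. The vault RNAs VTRNA1-1, VTRNA1-2 and VTRNA2-1 were under the median in both arrays. These values are steady-state signals, and transcription by RNA polymerase III was not measured.

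The genes next to the 5 genes on the chromosome were read for 2 positions on each side. Beside POLR3G, MBLAC2 was at 7.08 with control siRNA and 6.67 with MYCN siRNA (difference −0.41), in the same direction but by less, ADGRV1 was dim in both arrays, and no value was used for LYSMD3 and LOC731157. Beside POLR3GL, LIX1L was at 9.98 and 10.26 (difference 0.28) and ANKRD34A at 4.62 and 4.59, a dim value that changes sign with the scaling.

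TXNIP, which encodes the thioredoxin-interacting protein, lies on the other side of POLR3GL and was higher in both of its probe sets, with differences of 0.99 and 0.47, the second of them dim at 3.71 and 4.18. HJV was under the median in both arrays. Beside POLR3E, EEF2K, the kinase of elongation factor eEF2, was at 8.22 and 7.47 (difference −0.75), so the nearest measured neighbour was lower as well. No value was used for TRL-AAG2-4, LOC124903664 and CDR2. Beside GTF3A the measured neighbour went the other way: MTIF3, a mitochondrial translation initiation factor, was at 5.90 and 6.14 (difference 0.24). No value was used for the other neighbours of GTF3A, RNY1P1, LOC124903138 and RNU6-63P. Of the neighbours of POLR1F, MIR3146 and TMEM196 were under the median in both arrays. LOC105375179 and LOC105375180, on its other side, had no value used. The neighbours of POLR3E, GTF3A and POLR1F were added after the values were seen.

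**Figure D4:**
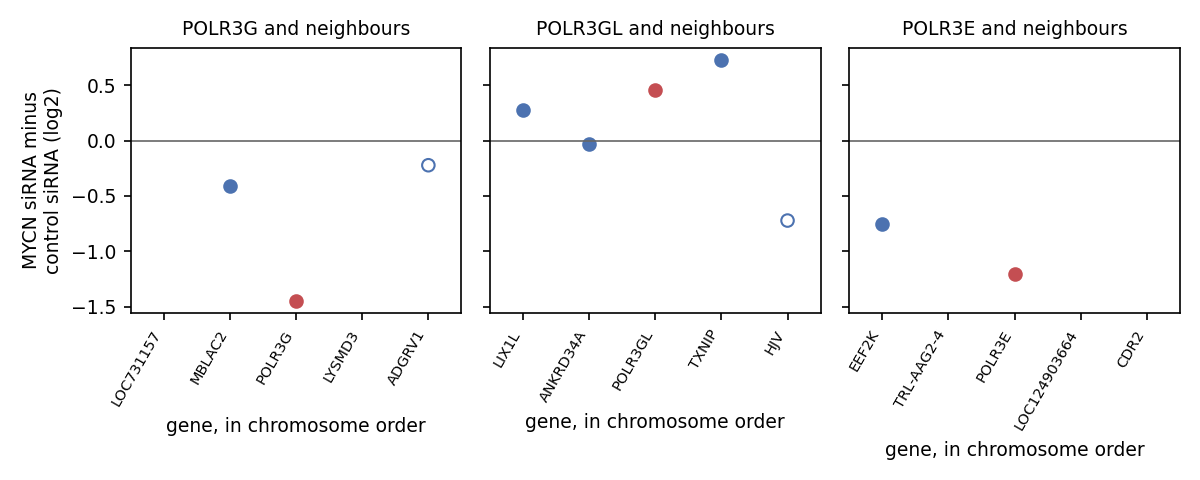
Log2 difference, MYCN siRNA minus control siRNA (vertical axis), of POLR3G, POLR3GL and POLR3E (red) and of the 2 genes on each side in RefSeq order (blue; open circles were under the median in both arrays; no point means no value was used). MBLAC2 at −0.41 and EEF2K at −0.75 share the direction of POLR3G and POLR3E by smaller amounts, and TXNIP, the mean of 2 probe sets, is at 0.73.

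POLR3G is known for its expression in stem cells, so genes of that state were read as a group. Of 11 such genes, 10 had values and 6 were measured, 4 lower and 2 higher, with a median difference of −0.18. Among all measured genes, 48.0% were lower by any amount. LIN28B, which blocks maturation of the let-7 microRNAs, was at 9.50 and 8.18 (2.49-fold lower) and was the only one past 2-fold. POU5F1 was at 5.66 and 5.47 (difference −0.19), SOX2 at 5.40 and 5.22 (difference −0.18) and DNMT3B at 6.61 and 6.75 (difference 0.15). NANOG was under the median in both arrays. SALL4, at 4.87 and 4.88, and PRDM14, at 4.71 and 4.38, completed the 6. PRDM14 reached its array's median only with control siRNA, so it could be counted only as lower. Apart from LIN28B and DNMT3B the measured genes were dim, and signals this low could hide a difference of the size seen in POLR3G.

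By their pair of log2 values, the measured protein-coding genes nearest to POLR3G were TRIB1 (7.71 and 6.45, distance 0.15), PMAIP1 (7.65 and 6.14, distance 0.22) and WIZ (7.49 and 6.33, distance 0.28). Those nearest to POLR3GL were NECAB1 (4.82 and 5.28, distance 0.035), ADGRD1 (4.81 and 5.31, distance 0.037) and ADCY5 (4.89 and 5.31, distance 0.043). The distance is Euclidean over 2 arrays, which says only that the signals were alike. Within 0.5 of the mean level there were 2495 measured genes around POLR3GL and 1943 around POLR3G.

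The labelled cell type was checked on noradrenergic neuroblastoma markers. Of 12, 10 had values and all 10 were measured, from 6.47 to 10.73 with control siRNA and from 6.53 to 10.96 with MYCN siRNA. Of the 10, 8 were higher and 2 lower, where 48.0% of all measured genes were lower. DBH, which makes noradrenaline, was 2.73-fold higher, and DDC differed by 0.38. The other higher markers, TH, GATA3, PHOX2A, CHGA, GATA2 and CHGB, differed by 0.06 to 0.30, less than the SD of 0.31 between probe sets. TH turned to −0.01 after quantile normalization, so it has no direction here. The 2 lower were ISL1 (−0.43) and HAND2 (−0.09). The markers of other cells had few values. Of 5 fibroblast genes, LUM was at 6.54 and 5.37 (2.24-fold lower) and DCN was under the median in both arrays. Of 4 Schwann or glial genes, S100B was at 5.90 and 6.92 (2.03-fold higher) and SOX10 at 6.19 and 5.91. Of 3 haematopoietic genes, CSF1R was at 4.64 and 4.26 and CD14 at 4.02 in both arrays. Whether a change in cell state or cell make-up has a part in the differences of the 5 genes was not tested, and in bulk RNA fewer cells of a type and less RNA per cell cannot be told apart.

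**Figure D5:**
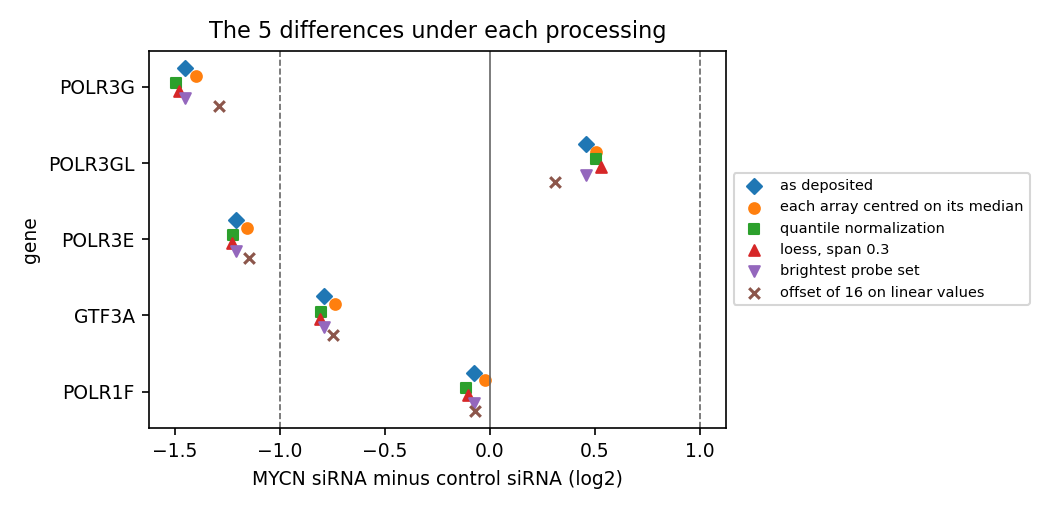
Log2 difference, MYCN siRNA minus control siRNA (horizontal axis), of each of the 5 genes (vertical axis) with the deposited values and under 5 other ways of processing them (symbols), 1 array per group, with 2-fold dashed. POLR3G stays between −1.50 and −1.29 and POLR3E between −1.23 and −1.15, under the 2-fold line in each, and POLR3GL stays between 0.31 and 0.53.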

How the data were processed

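Each array has a single log2 value for each probe set, deposited as the authors' RMA output (the submitters' processing notes name RMA). Its settings, its software and the genome build were not given in the sources used here. RMA usually equalises the distributions of arrays, and the sorted values of these 2 columns lay within 0.128 of each other, so a change in total RNA per cell cannot be seen.

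Of 46255 rows, 15835 had 1 gene symbol from the platform annotation, 0 had several and 30420 were unnamed here. All 15835 identifiers matched RefSeq of GRCh38.p14, used for symbols, gene types and gene order. Where a gene had several probe sets, their log2 values were averaged. Differences are MYCN siRNA minus control siRNA, and folds are powers of 2. With 1 array per group no test was run; precision is limited by the number of arrays. The level of MYCN was not analysed here.

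The members and gene lists were chosen with earlier results of these data known. Named are the 5 genes, the measured genes of the polymerase lists, the 2 neighbours on each side of the 5 genes (those of POLR3E, GTF3A and POLR1F added after the values were seen), and the 3 genes nearest to each paralog. Also named are the measured genes of the lists of stem cell genes, cell type markers and RNAs that RNA polymerase III makes. Some genes of these lists that were under the median are named as well. Python 3.11.15, pandas 2.3.3 and statsmodels 0.14.6 (loess) were used, and the scripts were tested on simulated data. Alternatives were median centring, quantile normalization, loess (span 0.3), the brightest probe set, an offset of 16, other filters and a 1.5-fold threshold.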

Additional observations from a re-analysis of the deposited data

How the results depend on the processing

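The differences of the 5 genes and of the paralogs were recomputed under 5 alternatives, the medians of the 6 polymerase lists under 7, and the counts of genes past 2-fold under 8, giving 88 values. Of these, 85 stayed close to the value as deposited (within the probe set SD of 0.32, or 1.5 times for a count), 3 moved and 0 changed the direction of a gene past 2-fold. However, 22 of the 85 equal the deposited value, most because the alternative could not move them: each of the 5 genes has 1 probe set, centring cancels in the paralog gap, and every listed gene with a value was already measured. The paralog gap ran from −2.01 to −1.60, its smallest size with the offset of 16, which damps dim genes. GTF3A ran from −0.81 to −0.74 and POLR1F from −0.11 to −0.03. The median of the RNA polymerase III subunits ran from −0.36 to −0.27, the former with the filter at the 70th percentile, which leaves out POLR3GL.

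The 3 values that moved are counts over all genes. With the offset of 16, 124 genes were at least 2-fold higher, against 234. At 1.5-fold, 613 genes were lower and 933 higher, since a lower threshold takes in more genes. No scaling moved the median difference of measured genes by over 0.1. No replicate could be left out, and no paired analysis was possible because each group is 1 array. Dim signal limits POLR3GL most.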
